A study of Homo sapiens with 18 samples.

Results

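The replication-dependent histone genes were examined in Cut&Tag libraries of MOLM-13 cells, an established human line from an acute myeloid leukemia with rearranged KMT2A. They were taken from the GENCODE annotation of hg38 by symbol, as the protein-coding genes named H1-1 to H1-6 or H2AC, H2BC, H3C or H4C followed by digits, which gave 69 of 20046 protein-coding genes. The members are 6 H1, 17 H2A, 18 H2B, 13 H3 and 15 H4 genes. A group of 55 genes lies on chromosome 6 (chr6:25723397-27893891), 11 on chromosome 1 (chr1:149782689-149887965), 2 farther along chromosome 1 (chr1:228434777-228463104), and H4C16 alone on chromosome 12 (chr12:14767999-14771131). The set was chosen by its H3K27ac values: loci at histone genes stood among those with less H3K27ac after PR-957 in these same libraries. The H3K27ac changes are therefore given as values and counts, with no test.

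In Cut&Tag, an antibody against a histone modification guides the Tn5 transposase to cut and tag the DNA around it. Cells received 100 nM PR-957 (ONX-0914), an inhibitor of the immunoproteasome subunit PSMB8, or the diluent DMSO, for 72 h according to the labels. The legend of the study that shows these data gives a shorter treatment time. Each treatment has 2 libraries for each of H3K27ac, H3K4me3, H3K4me1 and H3K27me3, 16 in all, from this single cell line. The 2 IgG samples are not analysed here. Nothing says that the libraries came from separate cultures, so p-values measure the spread between these libraries, which may be technical. With 2 libraries against 2, an exact permutation test cannot go below p = 0.333, and tests therefore come from edgeR's fit across all intervals of a modification. Total counts per library were 9885836 to 14165777 for H3K27ac, 30070119 to 44591150 for H3K4me3, 15204186 to 30584219 for H3K4me1 and 10032503 to 12047958 for H3K27me3. Of 10 myeloid marker genes, 9 had an H3K27ac interval and 8 an H3K4me3 interval near the start, against 3 and 6 of 11 markers of lymphoid, erythroid, epithelial and fibroblast cells.

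Replication-dependent histone genes encode the bulk of the histones that package newly copied DNA, and they are transcribed mainly while cells replicate their genome. H3 with H4 and H2A with H2B form the core particle around which DNA is wrapped, and H1 binds the linker DNA. The genes are short, lack introns and end in a stem-loop rather than a poly(A) tail. They are gathered in clusters that associate with the histone locus body, a nuclear compartment organised by NPAT. H3K4me3 and H3K27ac mark active promoters, H3K4me1 marks enhancers and promoter flanks, and H3K27me3 marks genes held silent by Polycomb complexes.

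The promoters of these genes share short elements that most promoters lack. RefSeq promoter windows (GRCh38.p14) were matched by symbol for 64 of the 69 genes. There were 68 entries, since 4 genes have 2 starts, and none was found for H2AC12, H3C11, H3C12, H4C1 and H4C3. The 150 bases upstream of the start are shown for 6 genes, in lower case. Capitals mark the TATA box (TATAAA) on the given strand and, on either strand, the CCAAT box, the octamer (ATTTGCAT), the H1 box (AAACACA) and the H4 element (GGTCCG). Where the CCAAT box lies on the opposite strand it reads ATTGG. H2BC14 (chr6:27814872-27815021, plus strand) and H2BC12 (chr6:27146859-27147008, minus strand) were chosen because their loci had among the largest decreases in H3K27ac. H2BC15 (chr6:27838419-27838568, plus strand) lies at the locus with the most H3K27ac per kb, and H2BC1 (chr6:25726627-25726776, plus strand) had no interval in any modification. The H4 genes H4C12 (chr6:27831561-27831710, minus strand) and H4C8 (chr6:26285535-26285684, minus strand) each stand alone at a locus, and edgeR called the first lower in H3K27ac and not the second.
H2BC14: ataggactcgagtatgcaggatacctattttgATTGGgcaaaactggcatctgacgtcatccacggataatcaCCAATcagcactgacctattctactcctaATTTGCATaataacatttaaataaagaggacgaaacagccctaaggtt
H2BC12: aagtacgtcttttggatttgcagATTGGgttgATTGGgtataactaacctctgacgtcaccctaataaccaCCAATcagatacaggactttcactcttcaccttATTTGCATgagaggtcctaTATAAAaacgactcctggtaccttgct
H2BC15: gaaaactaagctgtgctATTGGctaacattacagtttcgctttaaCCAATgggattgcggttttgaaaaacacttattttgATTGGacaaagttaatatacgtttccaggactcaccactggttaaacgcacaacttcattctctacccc
H2BC1: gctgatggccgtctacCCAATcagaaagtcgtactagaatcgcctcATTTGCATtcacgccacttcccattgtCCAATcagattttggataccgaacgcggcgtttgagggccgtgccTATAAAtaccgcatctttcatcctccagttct
H4C12: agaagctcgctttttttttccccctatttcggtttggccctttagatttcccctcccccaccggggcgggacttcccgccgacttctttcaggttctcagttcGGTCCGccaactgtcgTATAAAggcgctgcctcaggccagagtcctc
H4C8: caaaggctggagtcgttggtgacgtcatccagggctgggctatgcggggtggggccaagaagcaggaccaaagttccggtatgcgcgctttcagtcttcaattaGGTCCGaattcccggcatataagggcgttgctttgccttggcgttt

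Within the 250 bases upstream of the start, the octamer ATTTGCAT, which POU2F1 (OCT1) binds in H2B promoters, was found in 27 of 68 histone entries (39.7%), against 1.63% of all 35116 RefSeq promoters. It stood in 15 of 20 H2B and 11 of 16 H2A entries, in 1 of 13 H3 entries, and in none of the 6 H1 or 13 H4 entries. These entries are not independent promoters. The windows of divergent pairs such as H2AC14 and H2BC14 overlap, so the same octamer can be counted for both genes, and 4 genes have 2 entries. CCAAT was found in 85.3% of histone entries against 32.0% of all promoters. Every H1, H2A, H2B and H3 entry had it, and 3 of 13 H4 entries did. TATAAA stood in 57.4% of histone entries against 6.80% of all promoters. GGTCCG, part of the element that HINFP binds in H4 promoters, was found in 12 of 13 H4 entries and in 9.43% of all promoters. AAACACA, the H1 box, stood in all 6 H1 entries, in no other histone entry, and in 4.82% of all promoters. H2BC14 and H2BC12 thus share octamer and CCAAT boxes with H2BC1, which had no interval in any modification, whereas H2BC15 has CCAAT boxes and no octamer. Entries of genes with an H3K27ac interval had the octamer in 23 of 56 cases, and those without one in 4 of 12. The 56 include H2BC6, whose entry has the octamer but whose H3K27ac interval lies at another annotated start.

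A gene was assigned the intervals that overlap the 2 kb on either side of any of its annotated starts, and overlapping intervals were merged to a locus, which is read from its widest interval. For H3K27ac, 118 intervals in 28 loci lay at 57 of the 69 genes (82.6%), while 60.4% of all protein-coding symbols had an interval. The same 57 genes had H3K4me3 intervals (126 in 30 loci, with 63.9% of all symbols). H3K4me1 intervals lay at 35 of the genes (50.7%, with 43.5% of all symbols), in 22 loci. No histone gene had an H3K27me3 interval, whereas 19.9% of all symbols had one, and there was still none within 5 kb of a start. The nearest H3K27me3 interval was 76.8 kb away, from H2AC25 on chromosome 1. No H3K27me3 change can therefore be given for these genes.

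The 12 genes without an interval in any modification were H1-6, H2AC1, H2BC1, H2BC3, H3C3, H2BC10, H3C8 and H4C6 on chromosome 6, H4C14 and H4C15 in the larger chromosome 1 group, and H2AC25 and H2BC26, the whole of the smaller one. H1-6, H2AC1 and H2BC1 are known as testis histones. Words of 50 bases were compared among the windows of 2 kb on either side of the starts of the 69 genes. Those of H4C14, H4C15 and H3C14 all occur at another position in these windows as well. Those of H3C15, H2AC18 and H2AC19 do so to 99.9%, 68.6% and 68.6%. The sources used here do not give how reads with several matches were counted, so values at these 6 genes are uncertain. Of the 69 genes, 61 share less than 10% of their words with other positions in these windows, and the median over all genes is 0.354%. The rest of the genome was not searched, so reads at the other genes may also have several matches. H2BC6 is read at an annotated start 11.7 kb from its RefSeq start. No H3K27ac interval lies at the latter.

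In the DMSO libraries alone, the histone loci ranked differently in the 3 modifications. Levels are counts per 1000000 (CPM) on the effective library size, divided by the length of the interval in kb, and each locus was ranked among all loci near a protein-coding start in the same modification. In DMSO, the median histone locus stood at the 97.9th percentile for H3K27ac, and 27 of 28 loci exceeded the median of all such loci. It stood at the 49.3rd percentile for H3K4me3, with 14 of 30 loci above that median, and at the 37.5th for H3K4me1, with 5 of 22. At each of the 28 loci the H3K27ac rank was above the H3K4me3 rank of the same genes. H3K27ac intervals at histone genes were also wider, with a median of 5.45 kb against 2.93 kb over all loci near a start. Their GC content was lower (median 44.7% against 54.6%). The genes were chosen by these same H3K27ac libraries, and loci with more counts are called more readily. Nothing is therefore read from their H3K27ac rank, width or GC content.

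**Figure D1:**
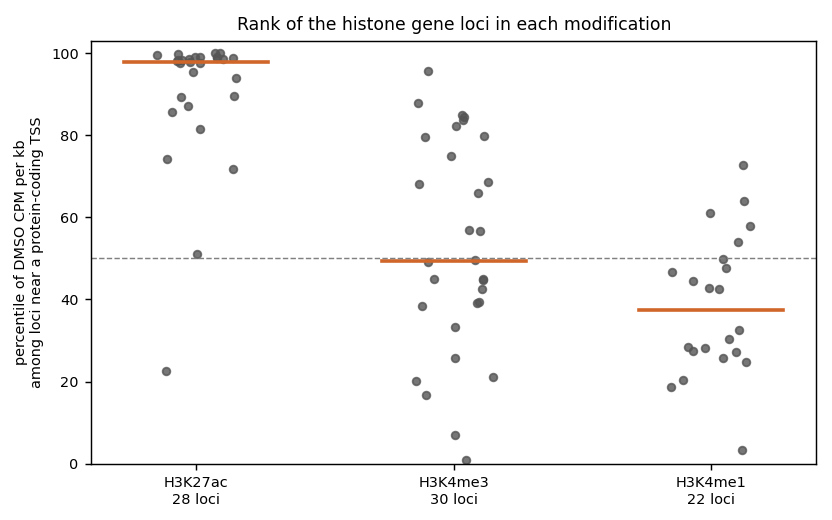
Each point is a histone gene locus, placed by the percentile of its DMSO level (CPM per kb) among all loci near a protein-coding start in that modification; orange bars are medians (97.9, 49.3 and 37.5) and the dashed line is the median of all such loci. Most H3K27ac points lie near the top, and H3K4me3 and H3K4me1 points spread over lower ranks. The genes were chosen by H3K27ac in these same libraries.

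H3K27ac was densest at H2AC15/H2BC15, a divergent H2A and H2B gene pair, with 36.1 CPM per kb in DMSO. H3C4/H2AC7/H2BC7 followed with 28.6, H3C12/H2AC17/H2BC17 with 21.6, H2BC4/H2AC6 with 21.0 and H2AC16/H1-5/H3C11/H4C13 with 17.3 CPM per kb. The lowest were H3C6 with 1.40, H2BC18/H3C13 with 2.77, H3C14/H2AC18 with 4.62, H2AC19/H3C15 with 4.91 and H4C3 with 6.05 CPM per kb. Of these 5, 3 are on chromosome 1. In H3K27ac and H3K4me3, the intervals read for H3C14/H2AC18 and H2AC19/H3C15 cover none of these genes' starts. Their levels are therefore not those of the starts themselves, whose sequence is largely shared between copies. The H3K4me3 order began with the same locus, H2AC15/H2BC15, at 9.002 CPM per kb. H2BC6 at its alternative start had 7.28, H3C4/H2AC7/H2BC7 6.86, H4C16 6.81 and H3C2/H2AC4 6.71. At the lower end stood H2BC6 at its RefSeq start with 0.389, H3C6 with 0.741, H2BC18/H3C13 with 1.41, H4C3 with 1.70 and H3C14/H2AC18 with 1.79. H3K4me1 levels spanned a narrower range. The densest were H3C12/H2AC17 (1.77), H2BC12/H2AC12 (1.49), H2BC11/H2AC11/H4C9 (1.42), H2BC8/H2AC8/H3C6 (1.33) and H2AC16/H1-5/H3C11/H4C13 (1.25). The lowest were H2AC18 (0.458), H3C2/H2AC4 (0.750), H1-3 (0.771), the smaller H2AC16 interval (0.827) and H1-2 (0.841).

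With PR-957, H3K27ac was lower at 26 of the 28 histone loci, and the median log2 fold change (PR-957 over DMSO) was -0.29. The median was 0.024 over all 30621 loci tested and 0.0069 over loci near a start. Both PR-957 libraries lay below both DMSO libraries at 24 histone loci and at 16.3% of all loci. At a false discovery rate of 0.05, edgeR called 10 histone loci, assigned to 29 genes, lower and none higher. Of all loci, 0.121% (37 of 30621) were called lower and 0.0425% higher. Of the 456 loci near a start with at least the histone loci's median mean count of 709.5, 3.51% (16) were called lower, and 14 of the 456 and 8 of the 16 were histone loci. Because this contrast is the reason the genes were examined, nothing is read from these shares. In bulk chromatin, a modification present in fewer cells and less of it in each cell cannot be told apart.

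The largest decrease was at H2BC13/H2AC13/H3C10/H2AC14/H2BC14 (chr6:27806478-27819148), an interval over 5 genes of the H2A, H2B and H3 families that includes the H2BC14 promoter shown. It had 221 and 213 CPM in the DMSO libraries and 153 and 151 CPM in the PR-957 libraries. The groups stood well apart, with a log2 fold change of -0.51 ± 0.047 (SE, n = 2 per group), or 29.9% less. H4C9/H2BC12/H2AC12 (chr6:27138052-27148824) had 149 and 157 CPM in DMSO and 113 and 114 in PR-957 (log2 fold change -0.43 ± 0.054). H3C12/H2AC17/H2BC17 (chr6:27887778-27896801) had 198 and 191 CPM against 153 and 140, a log2 fold change of -0.41 ± 0.049. The groups overlapped at none of these loci. H2AC16/H1-5/H3C11/H4C13 (chr6:27861764-27875768), the widest interval at 14.0 kb and the locus with the highest CPM, includes the linker histone gene H1-5. It had 249 and 237 CPM against 195 and 190, a log2 fold change of -0.34 ± 0.044.

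H4C12 (chr6:27829136-27835435) was the called locus with a single gene, and encodes H4. It had 52.4 and 47.6 CPM in DMSO and 37.9 and 36.2 in PR-957 (log2 fold change -0.44 ± 0.093). Near the other end of the cluster, H3C2/H2AC4 (chr6:26031190-26035763) had 65.4 and 70.98 CPM against 49.8 and 51.2 (-0.43 ± 0.079). H1-1/H3C1/H4C1/H4C2 is read from an interval (chr6:26018846-26028207) over H3C1, H4C1 and H4C2. H1-1 (chr6:26017032-26017787) lies outside it and was assigned by the 2 kb window. The H1-1/H3C1/H4C1/H4C2 locus had 127 and 124 CPM against 101 and 99.4 (-0.33 ± 0.058). In each of these the PR-957 libraries were close to each other and below both DMSO libraries. H2BC4/H2AC6 had 144 and 152 CPM against 116 and 113 (-0.37 ± 0.054). H2BC11/H2AC11 had 174 and 163 CPM against 139 and 136 (-0.30 ± 0.051). H3C4/H2AC7/H2BC7 had 201 and 204 CPM against 165 and 166 (-0.29 ± 0.047). All 10 called loci were thus 18.1% to 29.9% lower. Their median mean count was 1688, against 476 at the 18 others, and the counts of both sets overlapped, since the densest locus, H2AC15/H2BC15, was not called and H4C12 was. Without PR-957 library 2, 4 of the 10 were still called: H4C9/H2BC12/H2AC12, H2BC13/H2AC13/H3C10/H2AC14/H2BC14, H2AC16/H1-5/H3C11/H4C13 and H3C12/H2AC17/H2BC17. All 10 were below 0 whichever of the 4 libraries was left out.

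**Figure D2:**
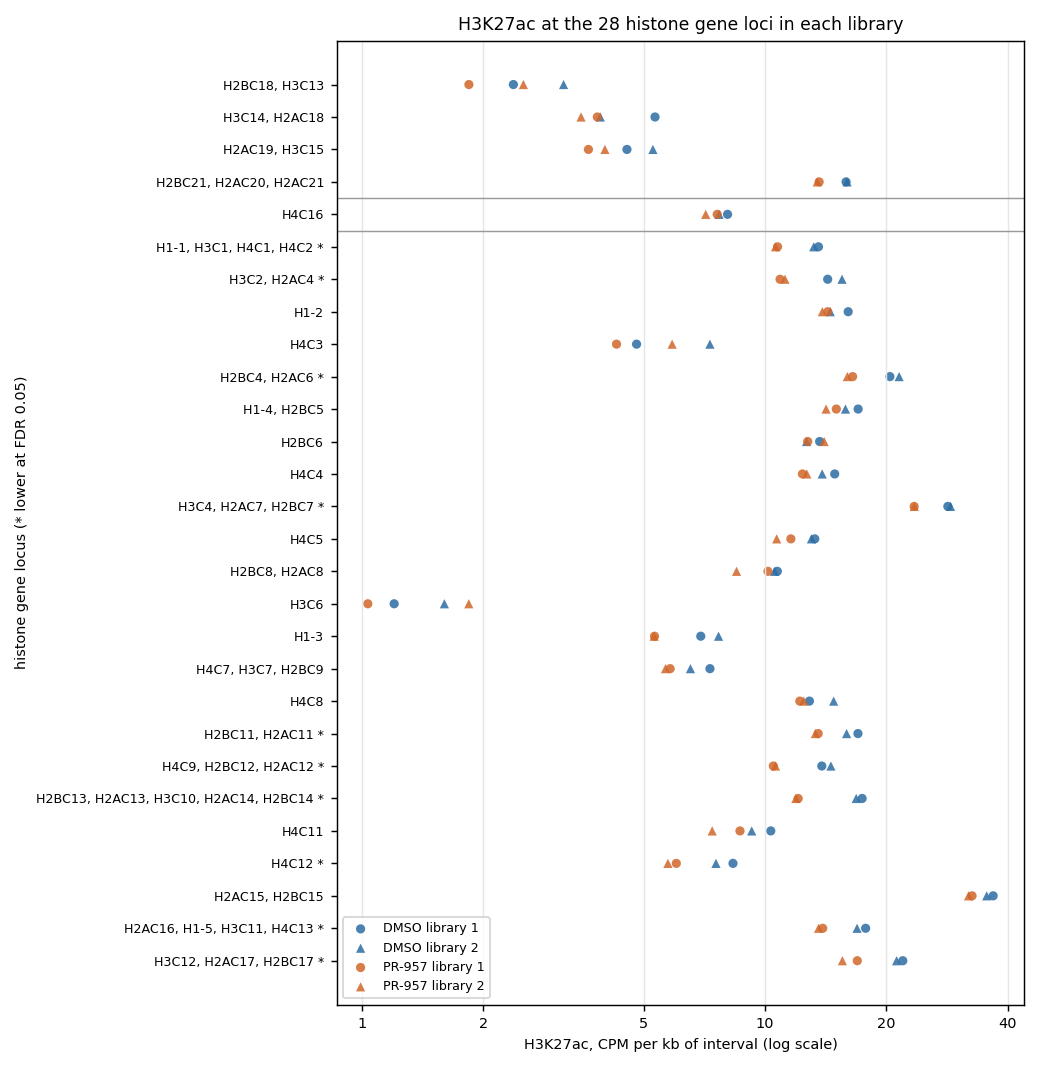
H3K27ac level (CPM per kb of interval, log scale) of each histone gene locus in the 2 DMSO (blue) and 2 PR-957 (orange) libraries, with chromosome 1 loci at the top, then H4C16, then chromosome 6 in order of position; an asterisk marks the 10 loci called lower. Orange points lie left of blue ones at 24 of 28 loci, and the groups overlap at H2BC18/H3C13, H4C3, H2BC6 and H3C6.

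Among the 18 loci that were not called, 16 had negative values. H2AC15/H2BC15, the densest, had 171 and 165 CPM in DMSO and 152 and 149 in PR-957 (log2 fold change -0.16 ± 0.050). H1-4/H2BC5 was similar (-0.17 ± 0.053). Of the linker histone genes, H1-2 had -0.12 ± 0.070 and H1-3, whose count is lower, -0.45 ± 0.143, and the difference between them was not tested. The loci with a single H4 gene lay at -0.21 ± 0.163 (H4C3), -0.20 ± 0.103 (H4C4), -0.24 ± 0.071 (H4C5), -0.16 ± 0.078 (H4C8), -0.30 ± 0.097 (H4C11) and -0.10 ± 0.132 (H4C16, chromosome 12), beside H4C12 above. Differences among these H4 genes were not tested, and no order is given. H4C7/H3C7/H2BC9 had -0.28 ± 0.096 and H2BC8/H2AC8 -0.20 ± 0.081. Without DMSO library 2, the value became 0.10 at H4C3 and -0.062 at H4C8. Without DMSO library 1 it became -0.041 at H1-2 and -0.12 at H1-4/H2BC5. Without PR-957 library 2 the values of H4C16, H4C11 and H2BC8/H2AC8 also moved toward 0, to -0.053, -0.18 and -0.067. The median over the 17 loci of several genes was -0.33, with 9 called, and over the 11 of a single gene -0.20, with 1 called. Loci of a single gene mostly had fewer counts, and the part of the count in this difference was not tested. The H2BC6 locus (0.03 ± 0.084) and H3C6 (0.08 ± 0.598, with counts of 11 to 28 per library) did not lie below 0, but without PR-957 library 2 their values were -0.048 and -0.42. H2BC6 is the locus read away from the RefSeq start.

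On chromosome 1, none of the 4 loci was called, and their median log2 fold change was -0.33, against -0.29 over the 23 loci of chromosome 6. H2BC21/H2AC20/H2AC21 had 96.7 and 97.3 CPM in DMSO and 82.9 and 82.1 in PR-957 (-0.23 ± 0.065), without overlap. The others had few counts, with -0.31 ± 0.251 at H2BC18/H3C13, -0.35 ± 0.165 at H3C14/H2AC18 and -0.35 ± 0.153 at H2AC19/H3C15. Leaving out each library in turn gave -0.57 to -0.11 at H2BC18/H3C13, nearest 0 without DMSO library 2, and -0.55 to -0.092 at H3C14/H2AC18, nearest 0 without DMSO library 1. H3C14/H2AC18 and H2AC19/H3C15 are assigned to genes whose start windows are largely shared between copies. The intervals read for them (chr1:149842895-149846357 and chr1:149847002-149850866) lie within 2 kb of the starts but cover none of these genes.

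H3K4me3 values were not used to choose the genes, although results of these data were known when they were chosen, and libraries of different modifications may come from the same cultures. No histone locus was called in either direction among 30, while 0.223% of all loci were called. DESeq2 called none either, and 5 loci had an unadjusted p under 0.05 in edgeR. The median log2 fold change was -0.041, against -0.001 over loci near a start. The PR-957 libraries lay below both DMSO libraries at 8 loci and above them at 5, while 16.9% of all loci lay below. The shares of all loci above, and with an unadjusted p under 0.05, were not determined, so nothing is read from those counts. At H2BC13/H2AC13/H3C10/H2AC14/H2BC14, where H3K27ac decreased most, H3K4me3 was 53.0 and 57.6 CPM in DMSO and 53.2 and 54.9 in PR-957. The groups overlapped, with a log2 fold change of -0.03 and an approximate 95% interval of -0.17 to 0.11. The interval at H2BC4/H2AC6 was -0.14 to 0.14, and at H2AC15/H2BC15 it was -0.19 to 0.09. Differences inside these intervals could not be told from 0 at this depth, and differences beyond them at other loci were not called either. H3K4me3 coverage at histone loci gave a median SE of 0.082.

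The 6 loci with the smallest p-values for H3K4me3 went both ways. H2AC19/H3C15 had 9.17 and 8.65 CPM in DMSO and 11.2 and 10.3 in PR-957 (0.27 ± 0.117, adjusted p = 0.545 in edgeR). H4C12 had 12.2 and 13.2 CPM against 15.03 and 14.2 (0.20 ± 0.100, adjusted p = 0.637 in edgeR). Both are higher in H3K4me3 with PR-957 and have negative H3K27ac values. The remaining loci lay below 0. They were H2BC21/H2AC20/H2AC21 (-0.19), H3C12/H2AC17/H2BC17 (-0.15), H2BC18/H3C13 (-0.57) and H2BC8/H2AC8 (-0.15), with adjusted p-values in edgeR of 0.576, 0.622, 0.625 and 0.735. Over the 28 loci, the H3K27ac value was the more negative at 26, with a median difference in log2 fold change of -0.23. The exceptions were H2BC18/H3C13 and H3C6, the H3K27ac loci with the fewest counts. The genes were chosen by their H3K27ac decrease, which favours a more negative H3K27ac value, so nothing is read from this count. The difference between modifications was also not tested, since they were fitted separately.

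**Figure D3:**
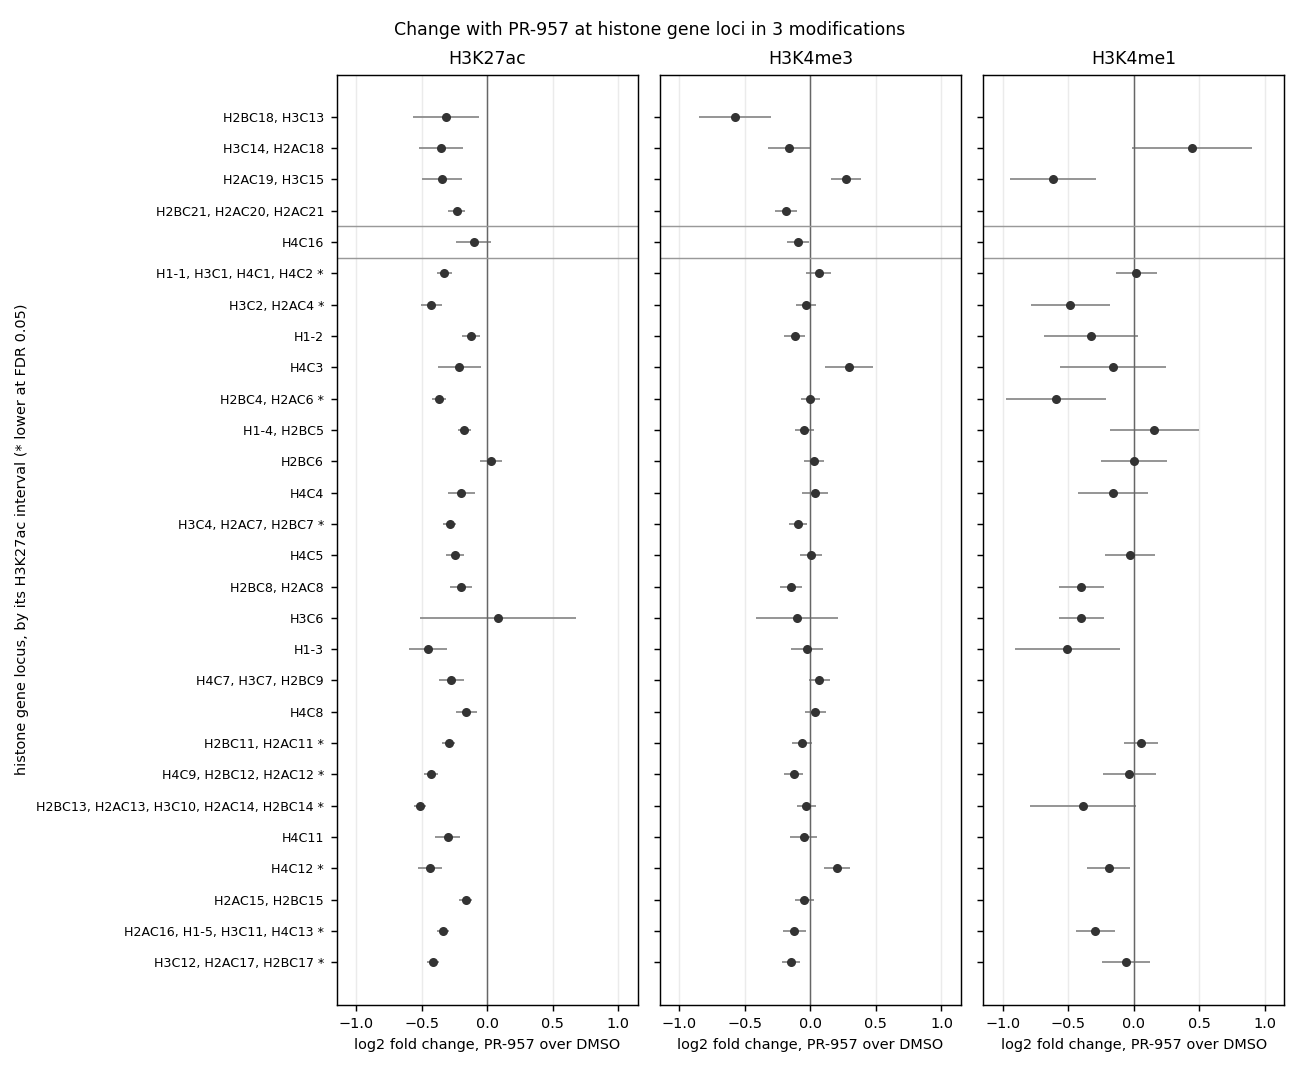
Log2 fold change (PR-957 over DMSO) with its SE at each histone gene locus, in H3K27ac, H3K4me3 and H3K4me1, with loci ordered as they lie on chromosomes 1, 12 and 6; rows without a point have no interval in that modification, and H2BC8/H2AC8 and H3C6 share a single H3K4me1 interval. H3K27ac points lie left of 0 at 26 of 28 loci, H3K4me3 points gather around 0, and H3K4me1 points have wide errors.

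H3K4me1 counts at histone genes were low. None of 22 loci was called, against 2.22% of all loci, DESeq2 called none, and 2 had an unadjusted p under 0.05. The median log2 fold change was -0.11, and over loci near a start it was -0.043. The first value ran from -0.21 (without PR-957 library 1) to -0.074 (without PR-957 library 2), and was -0.020 at a mean count of at least 50 and -0.031 in a window of 5 kb, so its place relative to other loci is not settled. The PR-957 libraries lay below both DMSO libraries at 7 loci and above at 1, while 19.2% of all loci lay below. Here too the shares of all loci above, and with an unadjusted p under 0.05, were not determined. H2BC8/H2AC8/H3C6 had the smallest p, with 7.79 and 7.86 CPM in DMSO and 6.55 and 5.44 in PR-957 (-0.40 ± 0.171, adjusted p = 0.205 in edgeR). H2AC16/H1-5/H3C11/H4C13 followed with 10.2 and 10.5 CPM against 8.73 and 8.26 (-0.29 ± 0.148, adjusted p = 0.303 in edgeR). Both lay below DMSO without overlap and did not pass the test. H2AC19 (-0.62), H3C2/H2AC4 (-0.48), H2BC4/H2AC6 (-0.59) and H1-3 (-0.51) had adjusted p-values in edgeR of 0.335, 0.434, 0.450 and 0.557.

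Loci within the chromosome 6 cluster that lie apart from the loci at histone gene starts give the local background. In H3K4me3 and H3K4me1 a few of them lie inside the long annotated spans of H2BC4, H2BC5 and H2BC6, and in H3K27ac none lies inside a histone gene. For H3K27ac there were 43, of which 26 were negative and none was called, with a median log2 fold change of -0.049. Of all H3K27ac loci, 0.121% were called lower and 0.0425% higher. These neighbours had far fewer counts (median 69.3), so changes of the size seen at histone loci could pass undetected at many of them. Their values ranged from -0.62 to 0.88. The 11 of them near a start of another protein-coding gene, among them TRIM38, HMGN4 and ABT1, had a median of -0.051. For H3K4me3, none of 53 neighbours was called, against 0.223% of all loci, and the median was 0.0001. For H3K4me1, 1 of 42 was called, higher, against 2.22% of all loci called in either direction, with a median of 0.098. H3K27me3 was present in the cluster at 11 loci, of which 7 were tested and none was called, against 3.96% of all loci. Their median of -0.062 became 0.0998 when libraries were scaled by size alone. No such neighbours were found in the other groups.

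**Figure D4:**
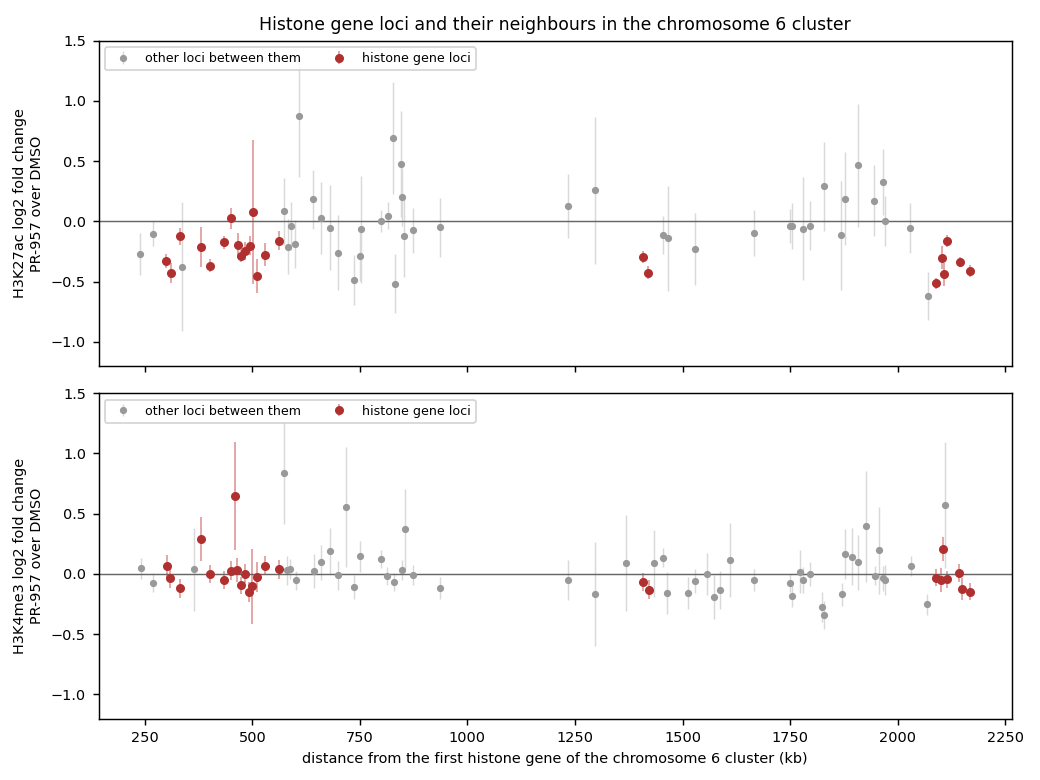
Log2 fold change (PR-957 over DMSO) with its SE of histone gene loci (red) and of the other loci between them (grey), by distance in kb from the first histone gene of the chromosome 6 cluster, for H3K27ac (top) and H3K4me3 (bottom). Red H3K27ac points lie mostly below 0 in each of the gene-rich stretches, grey points lie on both sides (median -0.049), and red H3K4me3 points lie around 0.

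Other genes of histone supply were read from lists written for this comparison: 22 regulators of histone gene transcription and RNA processing, 16 histone chaperones and 11 replication-independent histone genes. In H3K27ac, 20, 15 and 10 of them had a tested interval and none was called. Of all H3K27ac loci, 0.121% were called lower and 0.0425% higher. Each listed gene was read from its widest interval near any annotated start. At UPF1, CHAF1A and SRRT the H3K27ac and H3K4me3 intervals so chosen lie apart. The H3K27ac medians of the lists were -0.0067, -0.073 and -0.042, with 1, 2 and 0 genes at an unadjusted p under 0.05. The share of all loci with such an unadjusted p was not determined, so nothing is read from these counts. NPAT, SLBP, which binds the stem-loop of histone mRNA, and HINFP are named for their roles. NPAT had 17.4 and 16.1 CPM of H3K27ac in DMSO and 19.1 and 19.7 in PR-957 (0.21 ± 0.148), SLBP had 81.6 and 84.1 against 91.3 and 87.5 (0.11 ± 0.066), and HINFP 4.69 and 6.25 against 7.25 and 5.35 (0.20 ± 0.248). NPAT and SLBP were higher in both PR-957 libraries, and neither passed the test. The SLBP interval is 14.0 kb wide (chr4:1710155-1724112). Whether these values belong to NPAT and SLBP or to neighbouring genes was not tested. Of the 20 regulators 12 had negative values. The listed genes at an unadjusted p under 0.05 were LSM10, a subunit of the U7 snRNP, at 0.39 ± 0.198, and the chaperones NASP at -0.35 ± 0.139 and DNAJC9 at -0.38 ± 0.182, named after their values were seen. Of the 9 myeloid markers with an H3K27ac interval, 8 had negative values, with a median of -0.18. HOXA9 (-0.18 ± 0.041) and MEIS1 (-0.28 ± 0.043), 2 of the 9, were called lower, against 0.121% of all loci. None of the tested genes of the 3 lists was called in H3K4me3 (20, 15 and 10, against 0.223% of all loci) or H3K4me1 (12, 8 and 6, against 2.22%). In H3K27me3, 3 had a tested interval and 1 was called, while 3.96% of all loci were called. The called interval was the one read for SYMPK, a scaffold of the histone pre-mRNA cleavage machinery. It had 71.6 and 67.1 CPM in DMSO and 86.6 and 78.1 in PR-957 (0.25 ± 0.077, adjusted p = 0.032 in edgeR). This broad interval of 17.5 kb (chr19:45862572-45880045) extends well past the H3K4me3 interval at the SYMPK start (chr19:45860536-45865225). Whether the change belongs to SYMPK or to a neighbouring gene was not tested. The interval did not pass with DESeq2, with the GC trend removed or with a replicate block.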

How the data were processed

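Cut&Tag was performed for H3K27ac, H3K4me3, H3K4me1 and H3K27me3 in MOLM-13 cells. The authors aligned reads to hg38 with Bowtie2 and deposited whole-number counts per interval for each library, not normalized, with the same list of intervals in all 4 libraries of a modification. The submitters' processing notes also name Trimmomatic 0.39, Bowtie2 2.2.5, Picard 2.27.1, SAMtools 1.7, SEACR 1.3 and deepTools 3.5.1. Which counter was used is not stated. Between 58.5% and 70.8% of the deposited counts of a library were even. Whether the mates of a read pair were counted separately is not stated, so counts may not be independent molecules.

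Groups were taken from the labels, and no columns of other series were present. Intervals were filtered (filterByExpr, minimum count 10), scaled by TMM and tested for PR-957 against DMSO, each modification alone, with edgeR 4.0.16 (quasi-likelihood test, R 4.3.3), with Benjamini-Hochberg adjustment at 0.05 over all intervals. The test was checked on simulated counts. The planted changes were larger than those at the histone loci, so the recovery of smaller changes was not checked. The SE is the absolute log2 fold change divided by the square root of the F statistic. Starts came from GENCODE release 44. Alternatives were median-of-ratios factors, library size, cyclic loess (limma 3.58.1), a GC trend removed by loess (span 0.3), DESeq2 1.42.0, 1 interval per locus, a minimum mean count of 50 or no filter, a replicate block, windows of 1 and 5 kb, the interval with the highest count, and leaving out each library. Tables were joined in Python 3.11.15.

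The members and lists were chosen with earlier results of these data known. By rule, the text names every H3K27ac locus, the 6 smallest p-values in another modification where fewer pass, the 5 highest and 5 lowest levels, members without an interval, and listed genes that pass. The same-numbered replicates were not shown to be pairs.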

Additional observations from a re-analysis of the deposited data

How the results depend on the processing

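The median H3K27ac log2 fold change over histone loci was -0.26 with cyclic loess offsets and -0.24 with the GC trend removed, and -0.30 to -0.25 without each library in turn. All 10 loci called lower remained so under every other scaling, DESeq2, both count filters, 1 interval per locus and the replicate block (10 calls). Between 4 and 10 were called without each library, 4 of them without PR-957 replicate 2. For H3K4me1 the median was -0.19 with cyclic loess offsets, -0.020 for intervals with a mean count of at least 50, -0.031 in a window of 5 kb, and -0.21 to -0.074 without each library. The value at H3C2/H2AC4, -0.48, ran from -1.09 to 0.026 without each library and turned positive without PR-957 replicate 2. In H3K27ac, values of loci that were not called turned sign at H4C3 (0.10 without DMSO replicate 2), H2BC6 and H3C6. In no alternative was a histone locus called in H3K4me3 or H3K4me1, where adjusted p-values of the named loci ranged from 0.210 to 1.00 and from 0.157 to 0.983. The single listed gene called in H3K27me3 became 0 with the GC trend removed, DESeq2 or the replicate block. With library size alone, the median H3K27ac level was 13.55 CPM per kb in place of 13.6, and the medians of chromosome 6 neighbours were 0.010 for H3K4me3 and 0.0998 for H3K27me3 in place of 0.0001 and -0.062, so that the latter turned sign. The causes of these shifts were not tested. Of the values for single loci under these alternatives, 501 kept their direction and side of the threshold or moved by less than the spread between libraries, 15 moved by more and 1 reversed. The replicate number was only a label, since 2 pairs cannot show pairing, with correlations of deviations of -0.0050, 0.152, -0.0013 and -0.0089 for H3K27ac, H3K4me3, H3K4me1 and H3K27me3.

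With 2 libraries per group the SE at histone loci reached 0.598 for H3K27ac, 0.446 for H3K4me3 and 0.457 for H3K4me1, so differences at the thinly counted loci can go uncalled at this depth.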

Other observations

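The share of counts that were even numbers differed between treatments. Over all listed H3K27ac intervals DMSO libraries had 61.1% and 60.0%, and PR-957 libraries had 66.6% and 70.8%. It was 59.0% and 58.5% against 68.6% and 69.5% for H3K27me3, 62.4% and 62.7% against 65.3% and 68.0% for H3K4me1, and 63.8% and 64.4% against 65.7% and 66.0% for H3K4me3. Both PR-957 libraries lay above both DMSO libraries in all 4 modifications, and the gap was smallest for H3K4me3. The part of this shift in the H3K27ac values at histone loci was not tested.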
